A study of Mus musculus with 6 samples.

Results

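Phosphocreatine buffers the cellular ATP pool, and 7 genes of creatine handling were followed in whole-epididymis RNA of adult mice: the creatine kinases Ckmt1, Ckmt2, Ckb and Ckm, the synthesis enzymes Gatm and Gamt, and the transporter Slc6a8. They were taken by symbol from the 57127 genes of the count table, and all 7 were listed. Libraries came from WT mice and from Ocln-KO mice, which lack both alleles of the gene for the tight junction protein occludin (Ocln-/-), with 3 libraries of each genotype and all on a C57BL/6 background. The knockout was not limited to a cell type, and Ocln-KO males were bred from heterozygous parents. RNA was described as extracted separately from paired mice but also as pooled, so n counts libraries, and whether each stands for 1 animal is not stated.

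Creatine is built in a pair of steps. The enzyme encoded by Gatm moves the amidino group of arginine onto glycine, and the methyltransferase encoded by Gamt turns the resulting guanidinoacetate into creatine with a methyl group from S-adenosylmethionine. Slc6a8 encodes the sodium- and chloride-dependent transporter through which cells take up creatine made elsewhere. Creatine kinases then pass phosphate between ATP and creatine: Ckb and Ckm encode the cytosolic brain-type and muscle-type subunits, while Ckmt1 (ubiquitous) and Ckmt2 (sarcomeric) encode the kinases of the mitochondrial intermembrane space, which work beside the adenine nucleotide carriers and the outer membrane pore. Sperm and many transporting epithelia are known to use the phosphocreatine system.

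The libraries held between 30646424 and 38870780 counts, and levels are given as CPM, counts scaled by library size with TMM factors. On this scale a single count is worth 0.0267 to 0.0314 CPM. Ocln itself averaged 85.5 ± 6.51 CPM in the WT libraries and 15.1 ± 0.231 CPM in those of Ocln-KO (SD, n = 3 each). Of 8 markers of epididymal principal cells, Crisp1, Adam7, Lcn5 and Rnase9 were abundant, while Lcn8 and Cst8 were low and Lcn9 and Rnase10 too scarce to test. A sample record names prefrontal cortex, a tissue rich in Ckb and Ckmt1 transcripts. Of 10 brain markers Mog had no count in any library, Snap25 averaged 0.0179 CPM among WT libraries and 0.0209 CPM among those of Ocln-KO, while Nrgn, Syt1 and Mbp were detected at WT means of 43.8, 10.5 and 10.2 CPM. The list summed to 62.8 to 78.6 CPM in WT and 58.0 to 79.5 CPM in Ocln-KO, with Mbp called higher (adjusted p = 0.0315), and the part of these transcripts in the members' levels was not tested. Ocln-KO replicate 3 stood apart, with 105 CPM of 9 spermatid and sperm transcripts against 446.5 and 463 CPM in the other Ocln-KO libraries, and 352 CPM of 6 macrophage markers against 195 and 211 CPM.

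The members lie on 6 chromosomes (GRCm38, GENCODE M21), with Ckmt1 (121357714 to 121363737) and Gatm (122594467 to 122611303) both on chromosome 2. Ckb is on chromosome 12 (111669361 to 111672338), Gamt on chromosome 10 (80258151 to 80261012), Slc6a8 on chromosome X (73673150 to 73682502), Ckm on chromosome 7 (19404776 to 19422841) and Ckmt2 on chromosome 13 (91853387 to 91876885). Promoter windows of RefSeq (GRCm38.p6, from 250 bases before to 50 bases after a transcript start) were found for 6 of the 7 members, all but Slc6a8. Those of Ckmt1, the member that fell, and of Ckb and Gamt, the most abundant kinase and the most abundant member, are given 5′ to 3′ on the strand of the gene, with matches to the TATA box (TATAAA), the CCAAT box (CCAAT) and the GC box (GGGCGG), on either strand, in capitals.
Ckmt1, first start (chr2:121357526-121357825, plus strand): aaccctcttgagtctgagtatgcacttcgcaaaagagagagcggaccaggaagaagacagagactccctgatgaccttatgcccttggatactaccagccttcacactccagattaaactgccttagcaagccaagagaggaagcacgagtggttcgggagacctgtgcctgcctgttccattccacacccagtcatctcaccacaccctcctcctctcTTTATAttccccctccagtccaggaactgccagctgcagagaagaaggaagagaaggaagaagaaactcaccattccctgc
Ckmt1, second start (chr2:121358360-121358659, plus strand): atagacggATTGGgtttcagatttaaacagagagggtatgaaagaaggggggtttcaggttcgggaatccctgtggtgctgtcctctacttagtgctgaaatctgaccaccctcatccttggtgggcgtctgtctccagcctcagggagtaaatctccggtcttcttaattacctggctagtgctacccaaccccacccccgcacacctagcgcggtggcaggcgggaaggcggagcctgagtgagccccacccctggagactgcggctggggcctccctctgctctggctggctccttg
Ckb (chr12:111672289-111672588, minus strand): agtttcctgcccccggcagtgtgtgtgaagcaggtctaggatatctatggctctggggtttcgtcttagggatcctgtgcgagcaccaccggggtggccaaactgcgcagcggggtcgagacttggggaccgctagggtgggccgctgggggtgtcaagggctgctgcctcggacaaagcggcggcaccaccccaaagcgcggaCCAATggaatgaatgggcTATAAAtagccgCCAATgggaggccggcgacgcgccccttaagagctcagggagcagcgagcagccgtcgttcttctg
Gamt (chr10:80260963-80261262, minus strand): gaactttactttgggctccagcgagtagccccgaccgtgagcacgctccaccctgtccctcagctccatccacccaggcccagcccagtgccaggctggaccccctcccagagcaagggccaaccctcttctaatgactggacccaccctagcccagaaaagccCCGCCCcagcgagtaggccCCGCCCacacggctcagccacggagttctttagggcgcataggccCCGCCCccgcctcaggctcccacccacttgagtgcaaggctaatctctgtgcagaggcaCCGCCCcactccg

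The windows differ in make-up. Ckb has a TATA box 28 bases before its start between CCAAT boxes at positions -46 and -16, Gamt has GC boxes at -86, -67, -22 and 38, all on the opposite strand and so printed as CCGCCC, and the first Ckmt1 window has a TATA box on the opposite strand at -31, while the second has a CCAAT box on the opposite strand at -242. Of all 32851 RefSeq windows of this length, 13.6% hold a TATA box, 37.4% a CCAAT box and 35.7% a GC box by these letters. The Ckmt1 windows hold 4 and 10 CpG dinucleotides and those of Ckb and Gamt 22 and 14, against a median of 7 over all windows. The half-site of the androgen receptor (AGAACA), which 19.0% of all windows hold, was in none of the members' windows. The matches are a description of the letters only.

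Genotypes were compared gene by gene with the quasi-likelihood test of edgeR, its p adjusted by Benjamini-Hochberg over the 19691 genes abundant enough to be tested, and a gene was called at an adjusted p under 0.05. Of the 7 members, 6 were tested, all but Ckmt2. Ckmt1 was lower and Slc6a8 higher in Ocln-KO, and Ckb, Ckm, Gatm and Gamt did not pass. Over all genes tested 8.95% were called, 5.04% as lower and 3.91% as higher. WT and Ocln-KO libraries were fully separate for Slc6a8, which was higher, and for Ckmt1, Ckm and Gamt, which were lower, as for 16.9% and 19.4% of all genes tested. The median log2 fold change of the tested members was -0.28, and that of all genes tested 0.01.

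**Figure D1:**
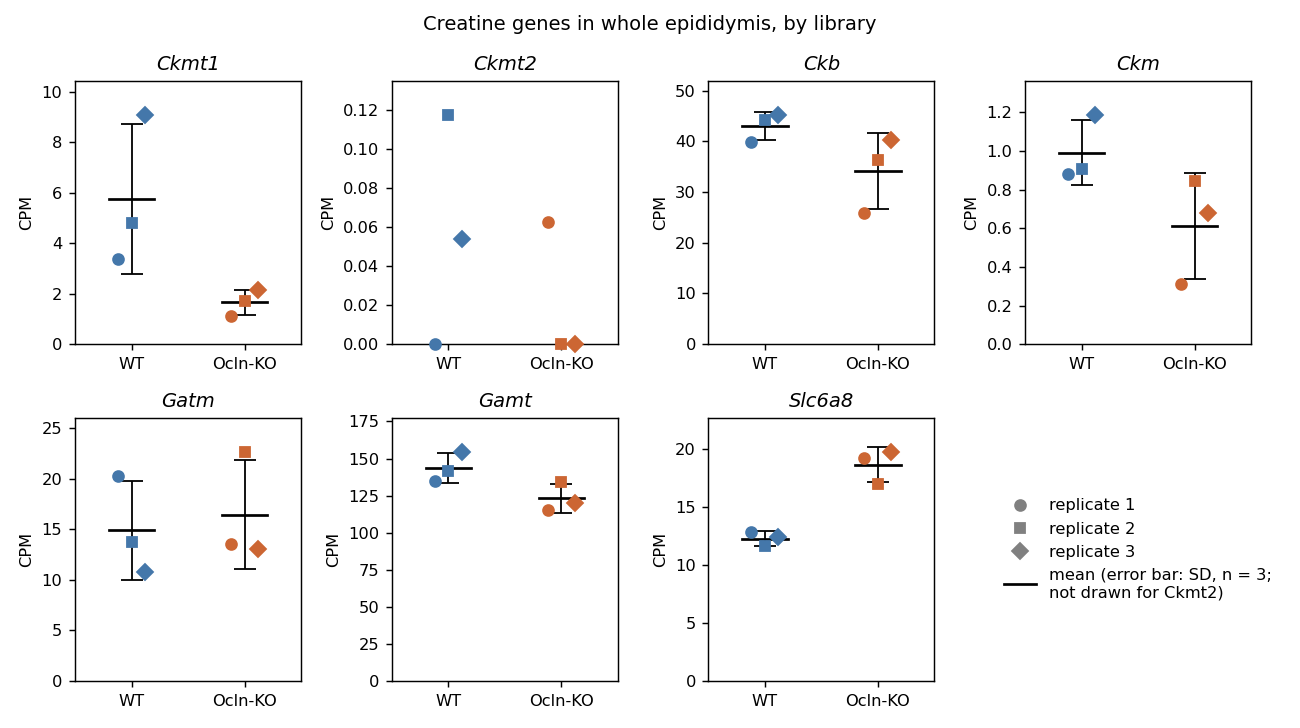
Level of each of the 7 creatine genes (CPM, linear axes from 0 with a scale for each gene) in the WT and Ocln-KO libraries; points are libraries, horizontal lines means and bars the SD (n = 3), which are not drawn for the barely detected Ckmt2. All 3 Ocln-KO libraries lie below the WT libraries for Ckmt1 and above them for Slc6a8, while Gatm, Ckb and Ckmt2 overlap.

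Ckmt1, the ubiquitous mitochondrial kinase, had 3.37, 4.81 and 9.07 CPM in the WT libraries, against 1.12, 1.73 and 2.13 CPM in those of Ocln-KO. The genotypes did not overlap, and WT replicate 3 stood well above the other WT libraries. The mean fell from 5.75 ± 2.97 to 1.66 ± 0.508 CPM (SD over 3 libraries each), which is -1.79 as a log2 fold change (standard error 0.42, 95% confidence interval -2.76 to -0.82, adjusted p = 0.0421), and this exceeds the 2-fold threshold of the study's methods, which 3.19% of all genes tested passed together with the adjusted p. Counting error was small beside this spread: WT replicates 1 and 3 had 126 and 337 counts, with 95% Poisson intervals of 105 to 150 and 302 to 375 that cover counting error only. The coefficient of variation was 51.6% among WT and 30.6% among Ocln-KO libraries, where counting alone would give 6.92% and 13.6%. Without WT replicate 3 the log2 fold change was -1.29 (adjusted p = 0.133), and without Ocln-KO replicate 3 it was -2.01 (adjusted p = 0.0342). The call was also lost without WT replicate 1 or 2 (adjusted p = 0.0940 and 0.0883) and without Ocln-KO replicate 1 or 2 (adjusted p = 0.0753 and 0.0993).

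In the annotation Ckmt1 overlaps only the last 10 exon bases of Strc on the opposite strand, and Strc had at most 10 counts in any library. None of the 50-base words of the Ckmt1 transcripts occurs in transcripts of another gene, and the same holds for Gatm, Gamt and Slc6a8. Markers of clear cells, the proton-secreting cells of the epididymis, were lower in Ocln-KO beside Ckmt1: the 5 markers Foxi1, Atp6v1b1, Atp6v0d2, Atp6v1g3 and Atp6v0a4 summed to between 84.5 and 106 CPM among WT libraries and between 42.2 and 52.9 CPM among those of Ocln-KO. Of the 5, 4 were called lower, as were 5.04% of all genes tested. WT replicate 3 had the highest sum of this list too. Within Ocln-KO the sums were 46.1, 42.2 and 52.9 CPM, lowest in replicate 2, whereas Ckmt1 was lowest in replicate 1. Sums were also lower for 5 adipocyte markers (4.68 to 8.18 CPM over the WT libraries, then 0.622 to 3.05 CPM with the knockout) and 3 blood markers (20.1 to 44.5 CPM over the WT libraries, then 4.85 to 11.4 CPM with the knockout). The part of any of these cells in the level of Ckmt1 was not tested, and in bulk RNA fewer cells of a type cannot be told apart from less RNA per cell.

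The other mitochondrial kinase, the sarcomeric Ckmt2, was at the limit of detection. It had 0, 4 and 2 counts in the WT libraries and 2, 0 and 0 counts in the Ocln-KO libraries. In 5 of the 6 libraries this is at or under 3 counts (between 0.0802 and 0.0942 CPM), so no fold change is given.

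Ckb, the brain-type cytosolic kinase, measured 39.8, 44.1 and 45.1 CPM in the WT libraries, against 25.9, 36.3 and 40.2 CPM in those of Ocln-KO. Ocln-KO replicate 3 lay above WT replicate 1, and Ocln-KO replicate 1 was the lowest of all. The means were 43.0 ± 2.82 and 34.2 ± 7.43 CPM (SD over 3 libraries each), or -0.33 as a log2 fold change with a 95% confidence interval from -0.70 to 0.04 (adjusted p = 0.212). Without Ocln-KO replicate 1 it was -0.16 (adjusted p = 0.367). Of the 50-base words of Ckb transcripts 9.98% also occur in the transcripts of Ckb-ps1, Ckb-ps2 and Gm12892. The files give these at most 12 counts in a library, but how reads that match several places were counted is not stated, so the Ckb level is uncertain to that extent.

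Smooth muscle, which surrounds the duct and is known to contain Ckb, was represented by 7 markers. These summed to between 1212 and 1465 CPM among WT libraries and between 1649 and 2225 CPM among those of Ocln-KO, and all 7 had a higher mean in Ocln-KO. Myh11 and Actg2 were called higher, as were 3.91% of all genes tested. The part of these markers in the level of Ckb was not tested.

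Ckm, the muscle-type kinase, was scarce, with 0.882, 0.908 and 1.18 CPM among WT libraries and 0.312, 0.847 and 0.681 CPM among those of Ocln-KO. These rest on 33, 31 and 44 counts in WT and on 10, 27 and 23 counts in Ocln-KO. The genotypes did not overlap, as was so in 36.3% of all genes tested, but the log2 fold change of -0.69 had a 95% confidence interval from -1.76 to 0.38 (adjusted p = 0.365), and without Ocln-KO replicate 1 it was -0.37 (adjusted p = 0.626). The antisense gene A930016O22Rik covers 451 of the exon bases of Ckm (15.5%) and had between 6 and 31 counts, and as the strand setting of the counting is not stated, reads of this stretch cannot be assigned with certainty. Of 12 striated muscle markers, Myh4, Myh7 and Tnnc2 were at or near 0. The list summed to between 17.8 and 21.4 CPM among WT libraries and between 16.5 and 26.7 CPM among those of Ocln-KO, with Acta1 called higher. Myh1 was also called lower, but it had 196, 56 and 75 counts in WT and 11, 7 and 1 counts in Ocln-KO. As Myh1 entered the test through the WT libraries, where it is high, its counts are a description only. Mb alone had 10.9, 15.0 and 11.6 CPM of this in the WT libraries, and 13.6, 16.7 and 4.11 CPM in those of Ocln-KO. The part of these markers in the level of Ckm was not tested.

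Per kilobase of exon, the 4 kinases together measured 15.4, 17.6 and 19.7 CPM in the WT libraries, against 9.54, 13.5 and 15.0 CPM in those of Ocln-KO. The highest Ocln-KO library thus lay just below the lowest WT library. Ckb made up most of this in every library, between 79.3 and 89.3% in WT and between 92.7 and 93.7% in Ocln-KO. The share of Ckmt1 was 8.76, 10.97 and 18.5% in WT and 4.71, 5.11 and 5.70% in Ocln-KO. Within a library, which takes the scaling out, there were 8.52, 10.96 and 20.2 Ckmt1 reads for 100 Ckb reads in WT and 4.45, 4.83 and 5.36 in Ocln-KO. The log2 ratio of Ckmt1 to Ckb averaged -3.02 ± 0.64 in WT and -4.36 ± 0.13 in Ocln-KO, a difference of -1.34 (SD, n = 3 each), and no overlap between the genotypes. The exact two-sided permutation test gave p = 0.1, the smallest p that 3 libraries against 3 allow.

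**Figure D2:**
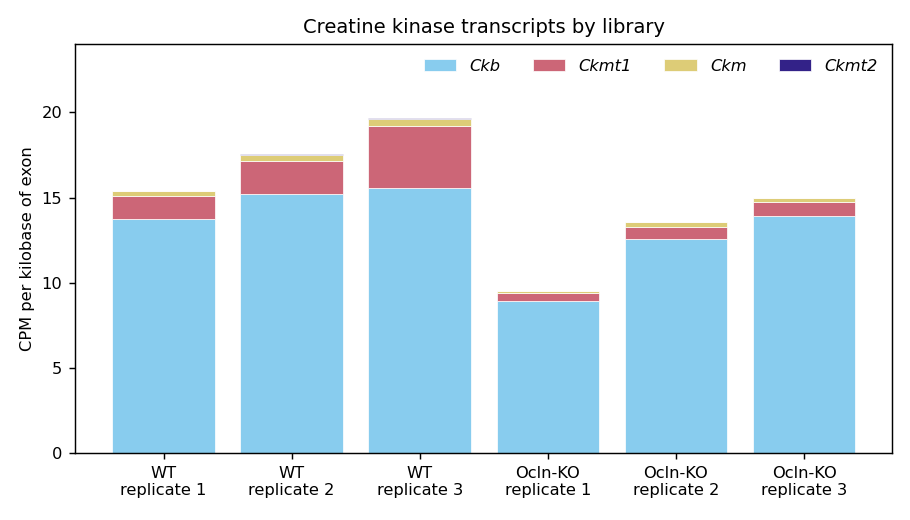
Creatine kinase transcripts in each library, in CPM per kilobase of exon, stacked by gene (bars start at 0). Ckb fills most of each bar; the Ckmt1 part is smaller in all 3 Ocln-KO libraries than in any WT library, and the bars reach 15.4 to 19.7 in WT and 9.54 to 15.0 in Ocln-KO.

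Gatm, which encodes the first enzyme of creatine synthesis, measured 20.3, 13.7 and 10.7 CPM in the WT libraries, against 13.6, 22.7 and 13.1 CPM in those of Ocln-KO. The libraries overlapped broadly, with the highest of each genotype nearly 2 times the lowest (1.89 in WT and 1.73 in Ocln-KO). The log2 fold change was 0.14 (95% confidence interval -0.53 to 0.81, adjusted p = 0.791), and its sign turned without WT replicate 3 (-0.05) and without Ocln-KO replicate 2 (-0.16).

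Gamt, which encodes the second enzyme, was the most abundant member and varied little: 135, 141 and 154 CPM among WT libraries and 116, 134 and 120 CPM among those of Ocln-KO. The genotypes did not overlap, though Ocln-KO replicate 2 lay only just below WT replicate 1 (134.0 and 134.8 CPM). The log2 fold change was -0.22 (standard error 0.10, 95% confidence interval -0.44 to 0.0001, adjusted p = 0.172). Scaled by total counts only, it was -0.14. The log2 ratio of Gatm to Gamt differed by 0.36 between the genotypes, less than the SD among the WT libraries of 0.56 (exact two-sided permutation p = 0.4).

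Per length, Gamt stood far above Gatm in both genotypes, at 99.4 ± 6.89 against 4.97 ± 1.63 CPM per kilobase in WT and 85.3 ± 6.69 against 5.48 ± 1.80 CPM per kilobase in Ocln-KO (SD, n = 3 each). In WT, 98.0% of the 17140 tested genes with an annotated length had a lower level per length than Gamt, 80.8% than Ckb, 54.6% than Gatm, 38.6% than Slc6a8 and 38.2% than Ckmt1. The order in WT was Gamt, Ckb, Gatm, Slc6a8, Ckmt1, Ckm and Ckmt2. Slc6a8 and Ckmt1 overlapped there, at 2.36 ± 0.116 and 2.30 ± 1.19 CPM per kilobase. In Ocln-KO the order was the same, but the lowest Slc6a8 library, at 3.26 CPM per kilobase, lay above the highest of Ckmt1, at 0.854.

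Slc6a8, the creatine transporter, measured 12.8, 11.6 and 12.4 CPM in the WT libraries, against 19.3, 17.0 and 19.7 CPM in those of Ocln-KO. It was the steadiest member among WT libraries: the coefficient of variation was 4.93% in WT and 7.91% in Ocln-KO, where counting alone would give 4.74% and 4.05%, and the genotypes lay well apart. The mean rose from 12.3 ± 0.605 to 18.7 ± 1.48 CPM (SD over 3 libraries each), which is 0.60 as a log2 fold change (standard error 0.12, 95% confidence interval 0.32 to 0.88, adjusted p = 0.0297), and this is below the 2-fold threshold of the study's methods. The log2 fold change kept between 0.56 and 0.69 over 13 alternatives, which leave out the replicate block. The call was lost without each WT library (adjusted p = 0.106, 0.0904 and 0.101 without replicates 1, 2 and 3) and without Ocln-KO replicate 2 (adjusted p = 0.0508), and the unadjusted p was at most 0.00630. The smooth muscle markers and the 6 macrophage markers had higher sums in all Ocln-KO libraries too, the latter between 195 and 352 CPM against 153 to 189 CPM in WT, and 5 lymphocyte markers reached 2.51 to 4.76 CPM against 0.942 to 1.85 CPM. The 4 basal cell markers summed to 210.2 to 251 CPM in Ocln-KO against 205 to 209.8 CPM in WT, so the ranges nearly touched. Krt14 was called higher at a log2 fold change of 0.58 (adjusted p = 0.0276). Krt5 and Trp63 had higher means but were not called (adjusted p = 0.186 and 0.106). Itga6 was lower, with a log2 fold change of -0.21 (adjusted p = 0.272). The part of these cells in the level of Slc6a8 was not tested. The ratio of Slc6a8 to Gatm, the gene of the first synthesis enzyme only, overlapped between the genotypes (exact two-sided permutation p = 0.3). There were 63.3, 84.9 and 115 Slc6a8 reads for 100 Gatm reads in WT and 142, 74.97 and 151 in Ocln-KO. A ratio of Slc6a8 to Gamt was not taken.

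**Figure D3:**
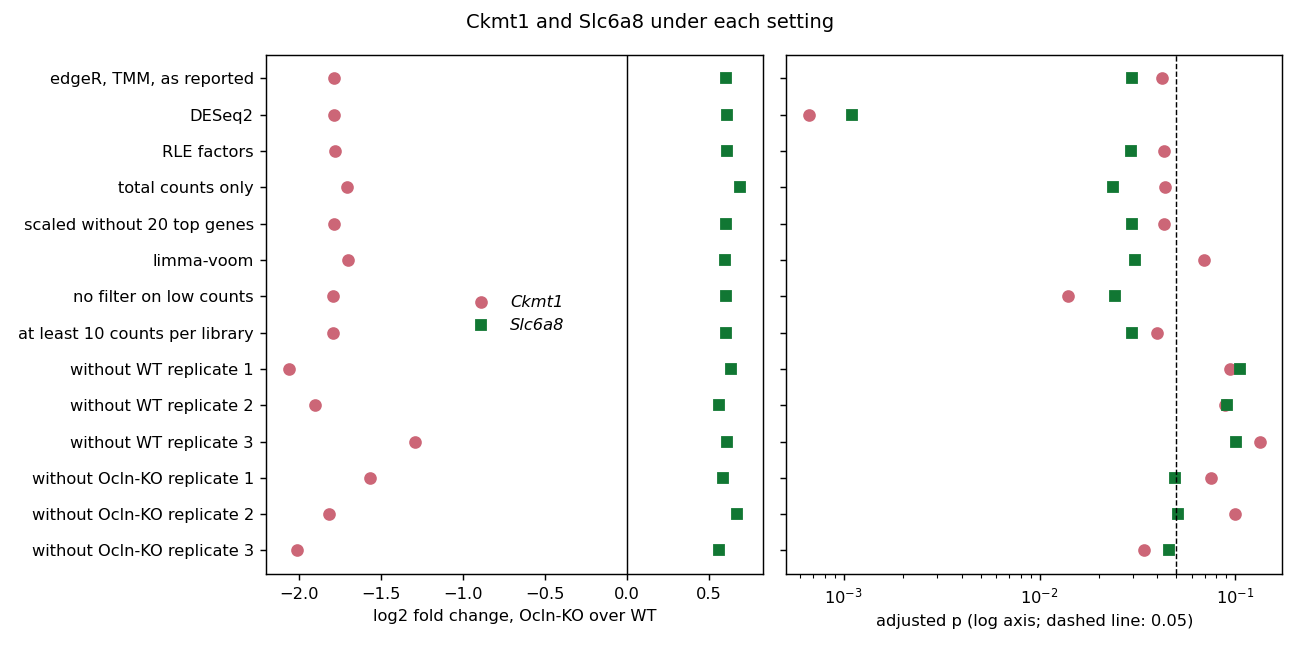
Left, the log2 fold change of Ckmt1 (circles) and Slc6a8 (squares) in Ocln-KO over WT as reported and under 13 alternatives; right, their adjusted p on a log axis, with a dashed line at 0.05. The sizes keep their sign, from -2.06 to -1.29 for Ckmt1 and from 0.56 to 0.69 for Slc6a8, while the adjusted p lies above 0.05 in 6 of the 13 for Ckmt1 and in 4 for Slc6a8.

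Related genes were taken from 4 lists of the surrounding pathway with 33 genes, of which 31 were tested. Of these 8 were called lower and 2 higher in Ocln-KO (32.3%, against 8.95% of all genes tested). The lists were chosen with earlier results of these data known, so this share is a description only. One of the genes counted as higher, Arg1, had almost no WT counts and entered the test only through the Ocln-KO libraries. The median log2 fold change was -0.24 against 0.01. The 8 became 4 when libraries were scaled by total counts only, 0, 1 and 0 without WT replicates 1, 2 and 3, and 1 without Ocln-KO replicate 2. At an unadjusted p under 0.05, 12, 13 and 12 were lower without the WT replicates and 13 without Ocln-KO replicate 2.

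**Figure D4:**
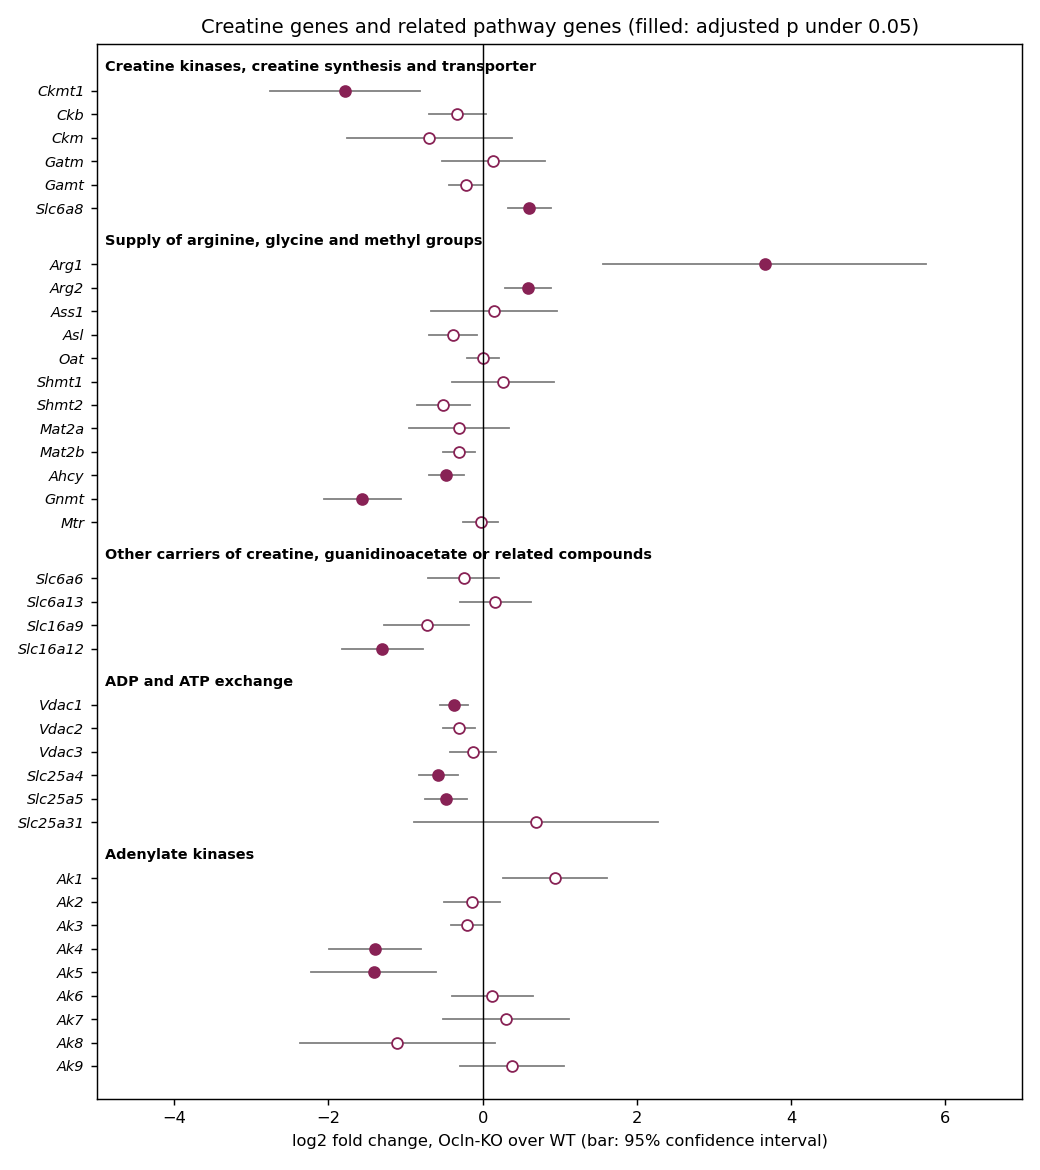
Log2 fold change (Ocln-KO over WT) of the 6 tested creatine genes and of the 31 tested genes of the related lists; bars are 95% confidence intervals and filled circles have an adjusted p under 0.05. Filled circles lie to the left of 0 for Ckmt1 and 8 related genes and to the right for Slc6a8, Arg1 and Arg2.

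Mitochondrial creatine kinase works with the carriers that exchange ADP and ATP across the inner membrane and with the pores of the outer membrane. Of these 6 genes, 3 were called lower, as were 5.04% of all genes tested, and their median log2 fold change was -0.34. The carrier Slc25a4 measured 150, 138 and 175 CPM in the WT libraries, against 95.9, 109 and 106 CPM in those of Ocln-KO, which is -0.58 as a log2 fold change (adjusted p = 0.0268), and the carrier Slc25a5 also fell, by 0.48 in log2 units (adjusted p = 0.0460). The pore gene Vdac1 measured 268, 258 and 269 CPM in the WT libraries, against 202, 203 and 211 CPM in those of Ocln-KO, which is -0.37 as a log2 fold change (adjusted p = 0.0332). Vdac2, which did not pass, had a log2 fold change of -0.30 (adjusted p = 0.0724). The genotypes did not overlap in these 4 genes, as in 19.4% of all genes tested in this direction, but they overlapped in the other 2 of the list, Vdac3 and Slc25a31, with log2 fold changes of -0.13 (adjusted p = 0.572) and 0.70 (adjusted p = 0.546).

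Adenylate kinases balance AMP, ADP and ATP alongside creatine kinase. Of 9 tested, 2 were called lower, as were 5.04% of all genes tested. By the sign of the log2 fold change, 5 of the 9 were lower and 4 higher. Ak4, of the mitochondrial matrix, measured 65.3, 84.1 and 55.8 CPM in the WT libraries, against 18.8, 22.6 and 36.5 CPM in those of Ocln-KO, which is -1.40 as a log2 fold change (adjusted p = 0.0244). Ak5, a cytosolic form, fell from 5.40 ± 1.82 to 2.03 ± 0.709 CPM (SD over 3 libraries each), which is -1.41 as a log2 fold change (adjusted p = 0.0465), and its highest library was WT replicate 3, as for Ckmt1. Ak3, the most abundant, had a log2 fold change of -0.21 and did not pass (adjusted p = 0.183). Ak1 had the largest rise, 0.94 as a log2 fold change, and did not pass either (adjusted p = 0.0825). Its libraries did not overlap between the genotypes, as in 16.9% of all genes tested in this direction.

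Among 14 genes that supply or use arginine, glycine and methyl groups, 12 were tested, with 2 called lower and 2 higher. Of all genes tested 5.04% were called lower and 3.91% higher. The 2 higher include Arg1, which entered the test only through the Ocln-KO libraries. Gnmt, a methyltransferase that competes for S-adenosylmethionine, measured 8.77, 8.15 and 10.1 CPM in the WT libraries, against 3.43, 3.36 and 2.37 CPM in those of Ocln-KO, which is -1.56 as a log2 fold change (adjusted p = 0.0134). Ahcy, which clears the S-adenosylhomocysteine left by Gamt and other methyltransferases, measured 24.9, 25.9 and 23.5 CPM in the WT libraries, against 18.5, 17.7 and 17.3 CPM in those of Ocln-KO, which is -0.47 as a log2 fold change (adjusted p = 0.0331). In both genes all 3 Ocln-KO libraries lay below the WT libraries, as in 19.4% of all genes tested.

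Arginases break down the arginine that Gatm uses. Arg2, the mitochondrial form, rose from 33.8 ± 1.69 to 50.8 ± 8.38 CPM (SD over 3 libraries each), which is 0.59 as a log2 fold change (adjusted p = 0.0370). Arg1, the cytosolic form, had 5, 0 and 2 counts in WT and 44, 26 and 12 counts in Ocln-KO. These counts are given as a description, since a gene that enters the test only through the group where it is high had to differ. Shmt2, a serine hydroxymethyltransferase that makes glycine, had the highest mean CPM of the list in WT. It did not pass and had a log2 fold change of -0.51 (adjusted p = 0.0711). Oat, of the same list, had the higher mean in Ocln-KO, at 178 against 165 CPM for Shmt2. Its log2 fold change was 0.0001 (adjusted p = 0.999). Arg1 is also known from macrophages, whose 6 markers all had higher means in Ocln-KO with 0 called (4 at an unadjusted p under 0.05 in edgeR's test), and their part was not tested.

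Of 4 other carriers, Slc16a12, a monocarboxylate carrier family member known to release creatine, was called lower, as were 5.04% of all genes tested. It measured 86.5, 84.9 and 98.7 CPM in the WT libraries, against 45.5, 40.9 and 23.2 CPM in those of Ocln-KO, which is -1.30 as a log2 fold change (standard error 0.23, adjusted p = 0.0227). Slc6a6, a taurine transporter that also carries guanidinoacetate, had a log2 fold change of -0.24 (adjusted p = 0.459). Its Ocln-KO libraries had 132, 132 and 76.7 CPM, with Ocln-KO replicate 3 alone below the WT range of 127 to 145 CPM.

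The genes whose profile over the 6 libraries was most like that of the called members were sought among genes of at least 1 CPM, by the root mean square difference of log2 CPM after each was set against its own WT mean. For Ckmt1 these were Gpr27, Fam26f, Lrrc4 and LOC108168308, with differences from 0.24 to 0.35 log2 units. Gpr27, the nearest, measured 1.60, 1.73 and 2.80 CPM in the WT libraries, against 0.374, 0.722 and 0.977 CPM in those of Ocln-KO. That WT replicate 3 was highest here, as for Ckmt1, follows from picking genes by likeness. For Slc6a8 the nearest genes were Clip4, Ifnlr1, Ptprk and Gm19133, with differences from 0.05 to 0.06 log2 units. Ifnlr1, with a level close to that of Slc6a8 in CPM, measured 12.9, 11.8 and 11.9 CPM in the WT libraries, against 17.9, 16.5 and 18.8 CPM in those of Ocln-KO.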

How the data were processed

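Whole-epididymis RNA-seq libraries of 3 WT and 3 Ocln-KO samples were analysed. As the study's methods describe, RNA was depleted of rRNA, made into directional libraries and sequenced as paired ends in a single lane; reads were cleaned, aligned to GRCm38 with HISAT2 (2.0.4 per the submitters' processing notes) and counted per gene with HTSeq. The authors deposited raw counts, without normalization. The counting mode, the strand setting and the treatment of multiply aligned reads are not given in the sources used here.

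Columns were matched to samples by title (0 unmatched). Of the symbols 28 had become dates (0.145% of counts) and 2 were repeated; no member was affected. In R 4.3.3, genes were kept by filterByExpr (19691 of 32046 with a count), scaled by TMM and tested with edgeR 4.0.16 (glmQLFit, glmQLFTest, Benjamini-Hochberg adjustment, call at an adjusted p under 0.05); the study's methods also asked for a fold change over 2 or under 0.5. The SE of a log2 fold change was derived from it and the root of its F statistic. Levels per length used merged exons of GENCODE M21. Ratios had 1 added to each count, and profiles 0.1 CPM. Fits were tested on simulated counts. Alternatives were DESeq2 1.42.0, limma-voom (limma 3.58.1), RLE factors, total counts only, scaling without the 20 most abundant genes, no filter, a replicate block, a minimum of 10 counts per library, the fold threshold and each library left out. All members are named. Of the pathway lists, the called genes, the other gene with the highest mean CPM and some further genes are. Members and lists were chosen with earlier results of these data known. Since the sources do not say whether libraries are separate animals, p-values measure only the spread between libraries, which may be technical.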

Additional observations from a re-analysis of the deposited data

How the results depend on the processing

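The directions of Ckmt1, Ckb, Ckm, Gamt and Slc6a8 held under all alternatives run across genes; that of Gatm, never called, turned in 2 fits without a library, over which its log2 fold change ran from -0.16 to 0.43. Of the members, 1 was called higher and 1 lower. The lower call was lost (0) with limma-voom (adjusted p of Ckmt1 0.0693) and the higher one (0) with the 2-fold threshold, and each count ran from 0 to 1 without 1 library; at an unadjusted p under 0.05 edgeR gave 1 higher and 1 or 2 lower in each of those fits. The related genes called, 2 higher and 8 lower, became 1 and 4 with the 2-fold threshold; 1 was higher with limma-voom or at least 10 counts in every library and 4 lower by total counts only, and without 1 library they ran from 0 to 1 and from 0 to 7. Over all genes, 770 higher and 992 lower calls became 1604 and 1708 with DESeq2, 293 and 335 with the 2-fold threshold, 1175 higher by total counts only, and from 4 to 782 and from 19 to 944 without 1 library. The causes were not tested. Total counts moved the median log2 fold change of all genes from 0.01 to 0.09. With the replicate number as a block, 10 genes were called higher and 31 lower, and no member or related gene was called (0), with 1 higher and 2 lower members, and 3 higher and 13 lower related genes, at an unadjusted p under 0.05 in edgeR. The deviations of same-numbered libraries correlated at -0.05, -0.03 and -0.01, and no library correlated best with its own number. With 3 libraries of each genotype this cannot decide whether same-numbered libraries come from paired mice. The log2 ratios kept their signs, with ranges without 1 library of -1.61 to -0.99 (Ckmt1 to Ckb), 0.10 to 0.65 (Gatm to Gamt) and 0.24 to 0.78 (Slc6a8 to Gatm); the replicate block leaves their values as they are. Depth limits Ckmt2 and Ckm.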
